A study of Mus musculus with 8 samples.

Results

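The genes described here encode 2 ligands of the interleukin-17 (IL-17) family, Il17b and Il17d, and 5 receptor chains, Il17ra, Il17rb, Il17rc, Il17rd and Il17re. They were taken by symbol from the array's platform annotation, and each was read by a single probe set, so 7 of the 22180 genes tested are members. The set was chosen by gene family with the measured Ad-Zip8 minus Ad-null differences in view. The cells were primary chondrocytes, which build and maintain cartilage, isolated from the knee joints of wild-type ICR mice aged 5 days (femoral condyles and tibial plateaus) and grown as a monolayer. One group carried a null control adenovirus (Ad-null, 4 arrays) and the other an adenovirus that expresses ZIP8, a zinc importer (Ad-Zip8, 4 arrays). Cells were harvested for RNA at 24 h. Every culture was therefore infected, and uninfected cells were not analysed here. The labels call the arrays biological replicates and do not say which cultures or animals they came from. Errors and p-values here cover the spread between arrays, which may be partly technical.

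IL-17 cytokines act through pairs of receptor chains. IL-17RA is the common chain: it pairs with IL-17RC to bind IL-17A and IL-17F, with IL-17RB to bind IL-25 (IL-17E), and with IL-17RE to bind IL-17C. IL-17RB also binds IL-17B. The paired receptors recruit the adaptor Act1, encoded by Traf3ip2, which passes the signal to TRAF proteins, NF-kB and C/EBP factors, and in joint cells IL-17A is known to raise chemokines and matrix-degrading enzymes.

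Both ligand genes and the gene of the IL-17B receptor chain Il17rb were lower in Ad-Zip8 cells, Il17b by 6.70-fold and the other two by less than 2-fold. Because the Ad-Zip8 mean of Il17b, 4.38, lies below the array medians, the size of its difference is uncertain. The common chain gene Il17ra was slightly higher, and Il17rc, Il17rd and Il17re differed little. In the fit over all genes, 3 of the 7 members lay past the adjusted p threshold of 0.05 as lower (all genes: 5.12%) and 0 as higher (all genes: 5.48%; 1 at an unadjusted p under 0.05). The groups did not overlap for 4 of the 7, against 17.6% of all genes. The members were chosen with this contrast known, so their differences are given as a description, without a test.

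Slc39a8, the gene of ZIP8, averaged 6.20 ± 0.07 on the log2 scale in the Ad-null arrays and 11.1 ± 0.15 in the Ad-Zip8 arrays (SD, n = 4 each), in the direction the labels give. Array medians lay between 5.04 and 5.11, and arrays correlated at 0.991 to 0.993 within a group. The 12 chondrocyte markers had group means of 9.71 to 13.5, far above those medians, and 10 were lower with Ad-Zip8 (all genes: 5.12%). Their summed log2 level was 15.9 to 16.0 with Ad-null and 15.3 to 15.6 with Ad-Zip8. Ad-Zip8 replicate 1 stood apart in its group: it was the lowest array for 12 of the 12 chondrocyte markers and for Il17b, and the highest for 17 of 25 IL-17 response genes, 16 of 31 signalling genes and 10 of 15 Fgf feedback genes. Without it, 8 chondrocyte markers were lower (summed log2 level 15.5 to 15.6), the log2 difference of Il17b was -2.62, that of Il17d -0.78 and that of Il17rb -0.84, and 3 members were still past the threshold as lower. Among the Ad-null arrays, replicate 3 was the lowest for 17 of 31 signalling genes, and without that array 10 of them rose, against 11 with all arrays. In bulk RNA, fewer cells of a type and less RNA per cell cannot be told apart.

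Il17b encodes IL-17B, a ligand that has been found in cartilage. Its log2 values with Ad-null were 7.29, 6.95, 7.06 and 7.20 in replicates 1 to 4. With Ad-Zip8 they were 4.00, 4.73, 4.21 and 4.59. Every Ad-Zip8 array lay below every Ad-null array, with a gap of 2.22 between the nearest values, and the Ad-Zip8 arrays were all below the array medians, where background compresses differences. The log2 difference was -2.74 (SE 0.16), larger in size than that of 99.9% of genes. Its spread within groups was also wide (pooled SD 0.26, against a median of 0.15 over all genes).

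Il17d encodes IL-17D, a secreted ligand for which CD93 has been reported as a receptor. Its values were 8.75, 8.36, 8.71 and 8.50 with Ad-null and 7.73, 7.75, 7.76 and 7.89 with Ad-Zip8. The groups did not overlap, and the Ad-Zip8 arrays were closer together (SD 0.07, n = 4) than the Ad-null arrays (SD 0.18, n = 4). The mean log2 difference was -0.79 (SE 0.10), a level 1.73-fold lower. The 250 bases before the RefSeq start of Il17d are shown because this gene was lower, and none of the 5 motifs named below occurs in them, so no letters are in capitals.
Il17d, GRCm38.p6 chr14:57524579-57524828, plus strand: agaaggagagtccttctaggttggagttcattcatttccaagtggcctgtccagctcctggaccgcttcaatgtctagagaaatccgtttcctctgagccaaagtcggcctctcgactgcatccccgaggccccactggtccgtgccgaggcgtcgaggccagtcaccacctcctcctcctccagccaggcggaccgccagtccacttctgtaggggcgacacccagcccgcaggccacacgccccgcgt

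The remaining ligand genes were low in both groups. Il17a, Il17c, Il17f and Il25 had group means between 4.46 and 5.38, close to or below the array medians, and none passed limma's test (adjusted p = 0.249 to 0.747, with 0 of the 4 at an unadjusted p under 0.05). Il17f was 4.99, 5.06, 4.99 and 4.34 with Ad-null and 5.12, 5.14, 5.03 and 5.36 with Ad-Zip8, so the groups overlapped. Cd93 was 4.52, 4.67, 5.09 and 4.62 with Ad-null and 5.20, 5.05, 5.17 and 5.03 with Ad-Zip8. Its log2 difference of 0.39 (SE 0.12) did not pass limma's test (adjusted p = 0.0765), but it did without Ad-null replicate 3, the highest Ad-null array (0.51, adjusted p = 0.00587). In the other fits with 1 array left out its adjusted p ran from 0.108 to 0.182. No detection calls were used, so none of these genes was called absent. Cells that make IL-17A were looked for through T cell markers: 0 of 7 measured markers passed limma's test (0 also at an unadjusted p under 0.05), their group means ran from 3.29 to 4.86, and their summed log2 level was 7.01 to 7.17 with Ad-null and 6.96 to 7.24 with Ad-Zip8.

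**Figure D1:**
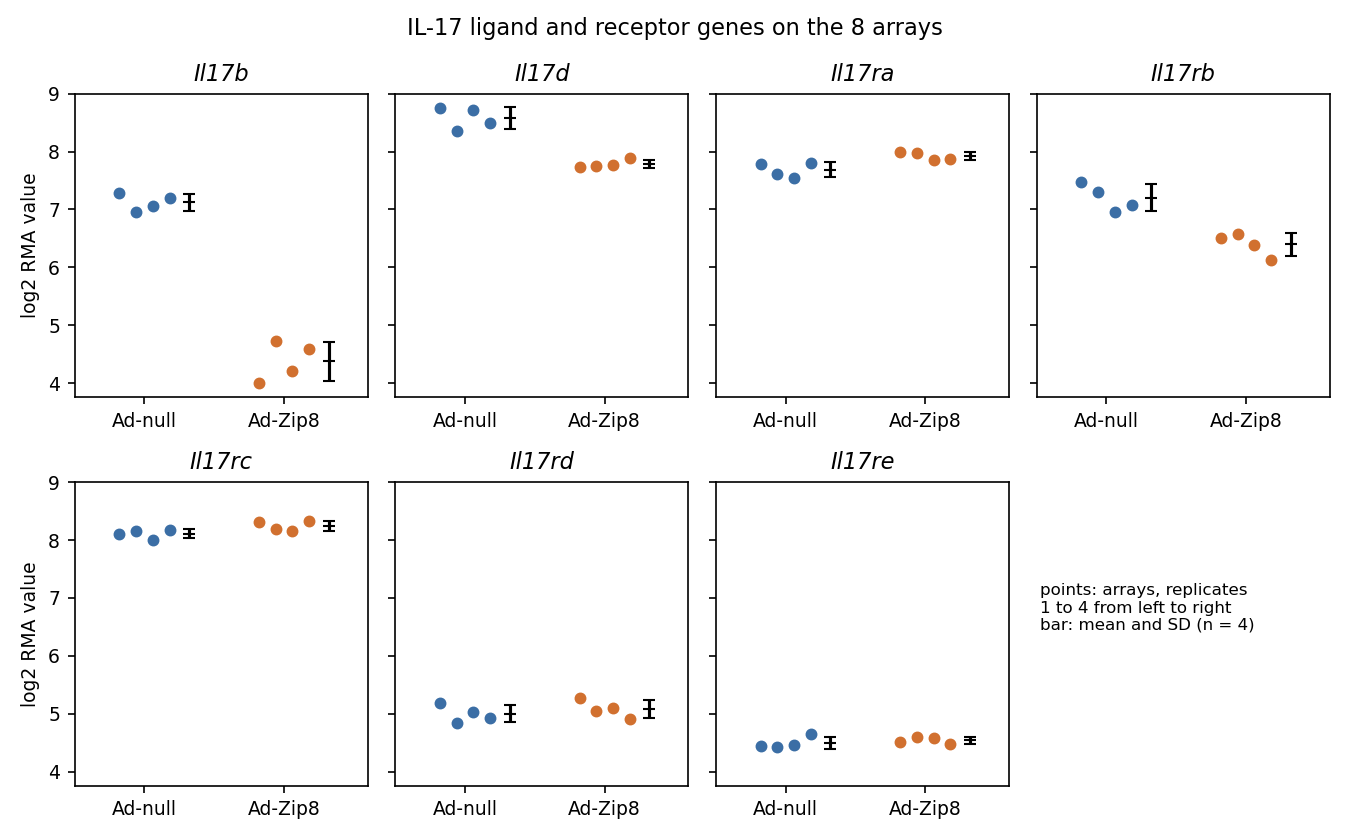
Log2 RMA values (vertical axis) of the 7 IL-17 ligand and receptor genes on each array, Ad-null in blue and Ad-Zip8 in orange, with the mean and SD (n = 4) as a bar beside the points. The groups are apart for Il17b (gap 2.22), Il17d, Il17rb and, narrowly, Il17ra, and they overlap for the other receptor genes; heights are not to be compared between genes.

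Il17rb encodes the chain that binds IL-17B and IL-25. Its values were 7.48, 7.31, 6.95 and 7.08 with Ad-null and 6.50, 6.58, 6.39 and 6.12 with Ad-Zip8. All 4 Ad-Zip8 arrays lay below all Ad-null arrays, the nearest 0.37 apart. The mean log2 difference was -0.80 (SE 0.14), a level 1.75-fold lower.

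The gene next to Il17rb in the RefSeq gene table is Chdh, which encodes choline dehydrogenase, a mitochondrial enzyme of betaine synthesis. The nearest of its 3 start sites in the RefSeq windows lies 104 bases upstream of that of Il17rb on the opposite strand, so the genes run away from each other. Chdh values were 7.21, 7.34, 7.08 and 7.0 with Ad-null and 6.64, 6.84, 6.44 and 6.50 with Ad-Zip8, and the groups did not overlap. Chdh fell by 0.55 on the log2 scale (SE 0.11, limma adjusted p = 0.00936), and it passed without each array in turn (adjusted p = 0.00571 to 0.0305). Within each group, replicates 1 and 2 were above replicates 3 and 4 for both genes. This order was noticed after the values were seen, and a shared cause was not tested. Actr8, on the other side of Il17rb, had a log2 difference of -0.09 (SE 0.09, adjusted p = 0.618). The stretch from this Chdh start to the base before the Il17rb start is shown on the Il17rb strand because both genes were lower. Which of the 3 Chdh starts the measured transcripts used was not tested. Its capitals mark the AP-1 motif.
Il17rb, GRCm38.p6 chr14:30008897-30009000, minus strand: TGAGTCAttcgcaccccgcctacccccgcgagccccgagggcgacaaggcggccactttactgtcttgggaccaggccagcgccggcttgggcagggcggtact

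RefSeq start windows matched 5 of the 7 members (Il17d, Il17rb, Il17rc, Il17rd and Il17re), and the 250 bases before each start were searched on both strands for 5 motifs. The AP-1 motif TGANTCA occurred once, at the Chdh end of the stretch shown for Il17rb, and 6.75% of the 32851 windows in the table hold it. The metal response element, TGCACNC or TGCGCNC, occurred in the Il17re window, as in 21.4% of all windows. The C/EBP motif TTGCNNAA (9.56% of windows), the SOX motif AACAAT (9.42%) and the NF-kB motif (7.25%) occurred in none of the 5. In the RefSeq gene table, the Il17rd and Il17re windows each overlap the span of their own gene, so they are not wholly upstream of it. The Il17rb window overlaps Chdh. The motifs searched do not overlap within these windows. A match describes the letters and is not evidence of binding.

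**Figure D2:**
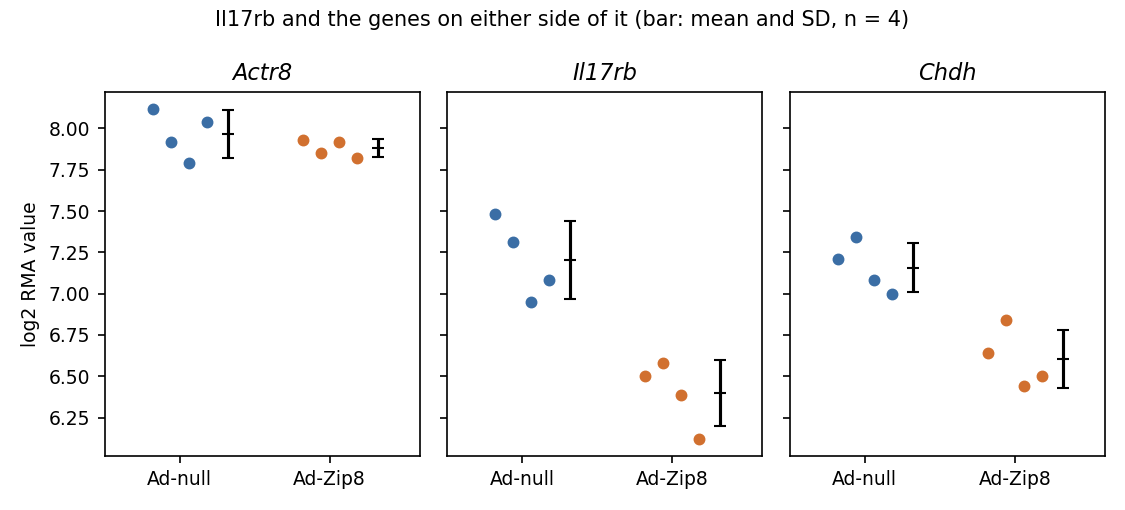
Log2 RMA values (vertical axis) of Actr8, Il17rb and Chdh on each array, Ad-null in blue and Ad-Zip8 in orange, replicates 1 to 4 from left to right, with mean and SD (n = 4). Il17rb and Chdh are apart between groups, whereas Actr8 overlaps; heights are not to be compared between genes.

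Il17ra encodes the common receptor chain. Its values were 7.78, 7.61, 7.54 and 7.81 with Ad-null and 8.0, 7.97, 7.86 and 7.87 with Ad-Zip8. The groups did not overlap, but the nearest arrays were 0.05 apart, and the log2 difference was 0.24 (SE 0.08). Il17rc encodes its partner for IL-17A and IL-17F. Its values were 8.11, 8.15, 8.0 and 8.17 with Ad-null and 8.31, 8.19, 8.15 and 8.33 with Ad-Zip8, with 3 of 4 Ad-Zip8 arrays above every Ad-null array. The log2 difference was 0.14 (SE 0.08).

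Il17rd encodes Sef, a receptor-like protein that is also a feedback inhibitor of fibroblast growth factor (Fgf) signalling. Its values were 5.19, 4.85, 5.03 and 4.93 with Ad-null and 5.27, 5.05, 5.11 and 4.91 with Ad-Zip8. The groups overlapped almost wholly, with a log2 difference of 0.08 (SE 0.10). Il17re encodes the partner chain for IL-17C. Its values were 4.44, 4.43, 4.47 and 4.65 with Ad-null and 4.51, 4.61, 4.58 and 4.48 with Ad-Zip8, an overlapping pair of groups with a log2 difference of 0.05 (SE 0.08). Both genes had group means at or below the array medians, where real differences could be compressed.

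Il17re and Il17rc stand next to each other in the RefSeq gene table, and neither group pair was clearly apart. Creld1, on the far side of Il17rc, rose by 0.48 on the log2 scale (SE 0.09, limma adjusted p = 0.00904). Jagn1, on the far side of Il17re, did not pass (-0.16, adjusted p = 0.326). Beside Il17d, Ift88 passed narrowly as lower (-0.32, SE 0.09, adjusted p = 0.0461). That call was lost when each array was centred on its median (adjusted p = 0.0652), with the replicate block (0.0809) and without any 1 array other than Ad-null replicate 3 (0.0653 to 0.114). The neighbours Csnk1a1 and Pcyox1l of Il17b did not pass (adjusted p = 0.620 and 0.254). Nor did the other neighbour of Il17d or those of Il17ra and Il17rd pass limma's test (adjusted p = 0.105 to 0.959).

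The 5 genes whose mean-centred log2 values over the 8 arrays came closest to those of Il17b were Sfrp5 (root-mean-square difference 0.31), C1qtnf3 (0.33), Slc35f1 (0.36), Slc16a14 (0.50) and Scube2 (0.53), out of 17351 genes compared. This measure favours genes with a fall of like size, and these had log2 differences of -1.79 to -2.80. Slc35f1 was -2.30 for its brightest probe set, used here, and -1.56 averaged over all its probe sets. Sfrp5, the gene of a secreted inhibitor of Wnt ligands, was 9.10, 9.62, 8.94 and 9.03 with Ad-null and 6.03, 7.01, 6.27 and 6.18 with Ad-Zip8. As for Il17b, its highest Ad-Zip8 value was in replicate 2 and its lowest in replicate 1, which the choice over these same arrays favours. Among the Ad-Zip8 arrays, C1qtnf3, Slc35f1 and Slc16a14 were lowest in replicate 1 but highest in replicate 4. Scube2 was highest in replicate 1 and lowest in replicate 2. C1qtnf3, which encodes a secreted protein of the C1q and Tnf related family, was 11.6, 11.5, 11.8 and 11.7 with Ad-null and 8.57, 9.28, 9.54 and 9.74 with Ad-Zip8.

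**Figure D3:**
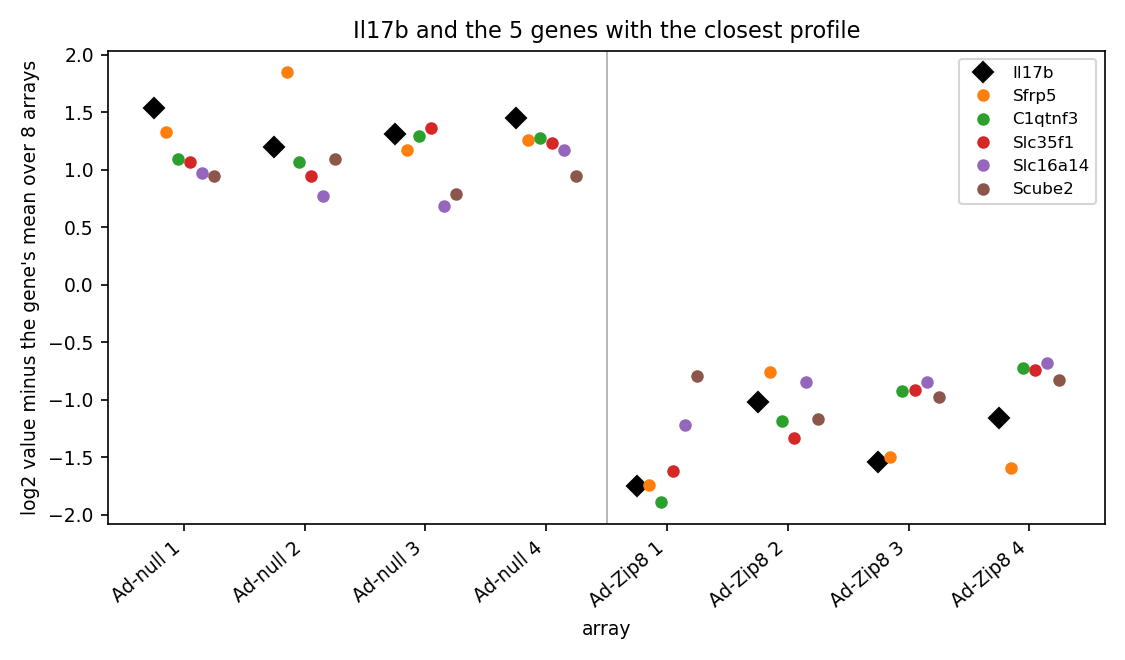
Log2 value minus the gene's own mean over the 8 arrays (vertical axis) for Il17b (black diamonds) and the 5 genes with the closest profile (coloured circles), by array. All 6 genes lie above 0 on the 4 Ad-null arrays and below 0 on the 4 Ad-Zip8 arrays, which the choice by likeness favours.

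Downstream of the receptors, 11 of 31 measured signalling genes rose (all genes: 5.48%), 1 fell (all genes: 5.12%) and 19 did not pass limma's test. The list's median log2 difference was 0.14, against -0.02 over all genes. It was drawn up with earlier results of these arrays known, so the count is not independent evidence of its direction. Traf3, Chuk and Nfkb1 were not analysed here. Traf3ip2, the gene of the receptor adaptor Act1, is named for its place at the receptor, after its values were seen. It was 6.50, 6.50, 6.25 and 6.41 with Ad-null and 7.61, 7.43, 7.25 and 7.39 with Ad-Zip8, a 2.01-fold rise (log2 difference 1.01, SE 0.10, adjusted p = 1.39e-04). The Ad-Zip8 arrays were all higher by a wide margin. Traf6, which encodes the ubiquitin ligase that Act1 recruits, is likewise named for its place in the pathway, and did not pass (-0.20, SE 0.11, adjusted p = 0.310).

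The signalling genes with the smallest adjusted p were transcription factors, co-regulators and an RNase that IL-17 shares with other inflammatory signals. Cebpd, a C/EBP factor gene, went from 5.00, 4.91, 4.63 and 5.17 to 7.61, 7.51, 7.51 and 7.35, a log2 difference of 2.57 (SE 0.11, limma adjusted p = 2.10e-06), whose size is uncertain because the Ad-null mean of 4.93 lies below the array medians. Nfkbiz, which encodes a co-regulator of NF-kB targets, rose 5.12-fold (log2 difference 2.36, SE 0.11). Cebpb, another C/EBP factor gene, rose 2.63-fold (log2 difference 1.39, SE 0.09). Zc3h12a, which encodes Regnase-1, an RNase that degrades inflammatory transcripts, rose 3.95-fold (log2 difference 1.98, SE 0.18). The gene that fell was Tab2, an adaptor of the TAK1 kinase (-0.30, SE 0.07, adjusted p = 0.0231). It did not pass with quantile normalization repeated (adjusted p = 0.0548), nor when any of 4 arrays was left out (0.0596 to 0.0674): replicates 2 and 3 of Ad-null, and replicates 1 and 4 of Ad-Zip8.

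Of 25 genes known to respond to IL-17, 17 rose (all genes: 5.48%), 0 fell (all genes: 5.12%) and 8 did not pass limma's test. At an unadjusted p under 0.05, 0 fell as well. The list's median log2 difference was 1.62 (all genes: -0.02). Many of the 25 genes also respond to IL-1 and Tnf. Earlier results of these arrays were known when the list was drawn up, so the count is not independent evidence of its direction. Cxcl5, a neutrophil chemokine gene, was 6.18, 6.02, 5.70 and 6.28 with Ad-null and 11.9, 11.3, 11.3 and 11.4 with Ad-Zip8, a log2 difference of 5.43 (SE 0.16, limma adjusted p = 1.16e-07). Mmp3, the stromelysin 1 gene, differed by 5.99 (SE 0.27), the chemokine gene Cxcl1 by 3.81 (SE 0.18) and the collagenase 3 gene Mmp13 by 4.41 (SE 0.24). The size of the Mmp3 difference is uncertain because its Ad-null mean of 5.38 lies close to the array medians. Without Ad-Zip8 replicate 1, 16 response genes rose, with a median of 1.56. All 17 genes that rose had groups that did not overlap (all genes, apart as higher: 7.89%), which passing the test favours.

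The 8 response genes that did not pass lay between -0.19 and 0.23. They were Csf2 and Csf3, which encode granulocyte growth factors, S100a8 and S100a9, which encode calprotectin, Defb4, Il19, Lif and the Rank ligand gene Tnfsf11. S100a8 had group means of 2.76 and 2.78, and S100a9 of 3.91 and 4.01, far below the array medians. Csf3 had means of 4.84 and 4.79. Macrophage markers moved in part with the response genes: of 10, 2 rose (all genes: 5.48%), 1 fell (all genes: 5.12%) and the other 7 did not pass. Cd14 rose by 1.40 on the log2 scale (SE 0.15) and Cd68 by 0.83 (SE 0.13), while Laptm5 fell (-0.72, SE 0.10). The 10 macrophage markers' summed log2 level was 8.48 to 8.58 with Ad-null and 8.79 to 9.10 with Ad-Zip8. Ptprc, the pan-leukocyte gene, had group means of 3.39 and 3.22. Of 7 neutrophil markers 0 fell (0 also at an unadjusted p under 0.05) and 1 rose (all genes: 5.48%). That marker, Camp, named after its value was seen, passed limma's test as higher (adjusted p = 0.0425). Its groups overlapped, with means of 3.44 and 4.04, and the call was lost under the replicate block (adjusted p = 0.0697), with quantile normalization repeated (0.0538), or when replicate 1 or 4 of Ad-null or replicate 1, 3 or 4 of Ad-Zip8 was left out (0.0994 to 0.112). The neutrophil markers' summed log2 level was 7.17 to 7.51 with Ad-null and 7.31 to 7.58 with Ad-Zip8. Of 6 endothelial markers 0 passed, also at an unadjusted p under 0.05 (7.16 to 7.37 and 7.29 to 7.36). The part of other cells in the result was not tested.

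Il17rd is also counted among the feedback genes that Fgf and Ras signalling raises. Of 15 other such genes, 8 rose (all genes: 5.48%), 1 fell (all genes: 5.12%) and 6 did not pass. The list, drawn up with earlier results of these arrays known, had a median log2 difference of 0.45 (all genes: -0.02). Etv5, an Ets factor gene, rose by 1.14 on the log2 scale (SE 0.14, limma adjusted p = 6.77e-04), and Dusp6, which encodes a phosphatase of ERK kinases, by 1.28 (SE 0.20). The probe sets of these genes differed in size: averaged over all of a gene's probe sets the rises were 0.74 and 0.70, and both still passed (adjusted p = 0.00263 and 0.00854). The Sprouty-related genes Spred1 and Spred2 rose by 0.39 (SE 0.07) and 0.73 (SE 0.13). Flrt3, an adhesion protein gene, fell by 0.49 (SE 0.09). Il17rd itself, with a level near the array medians, differed by 0.08 (SE 0.10).

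**Figure D4:**
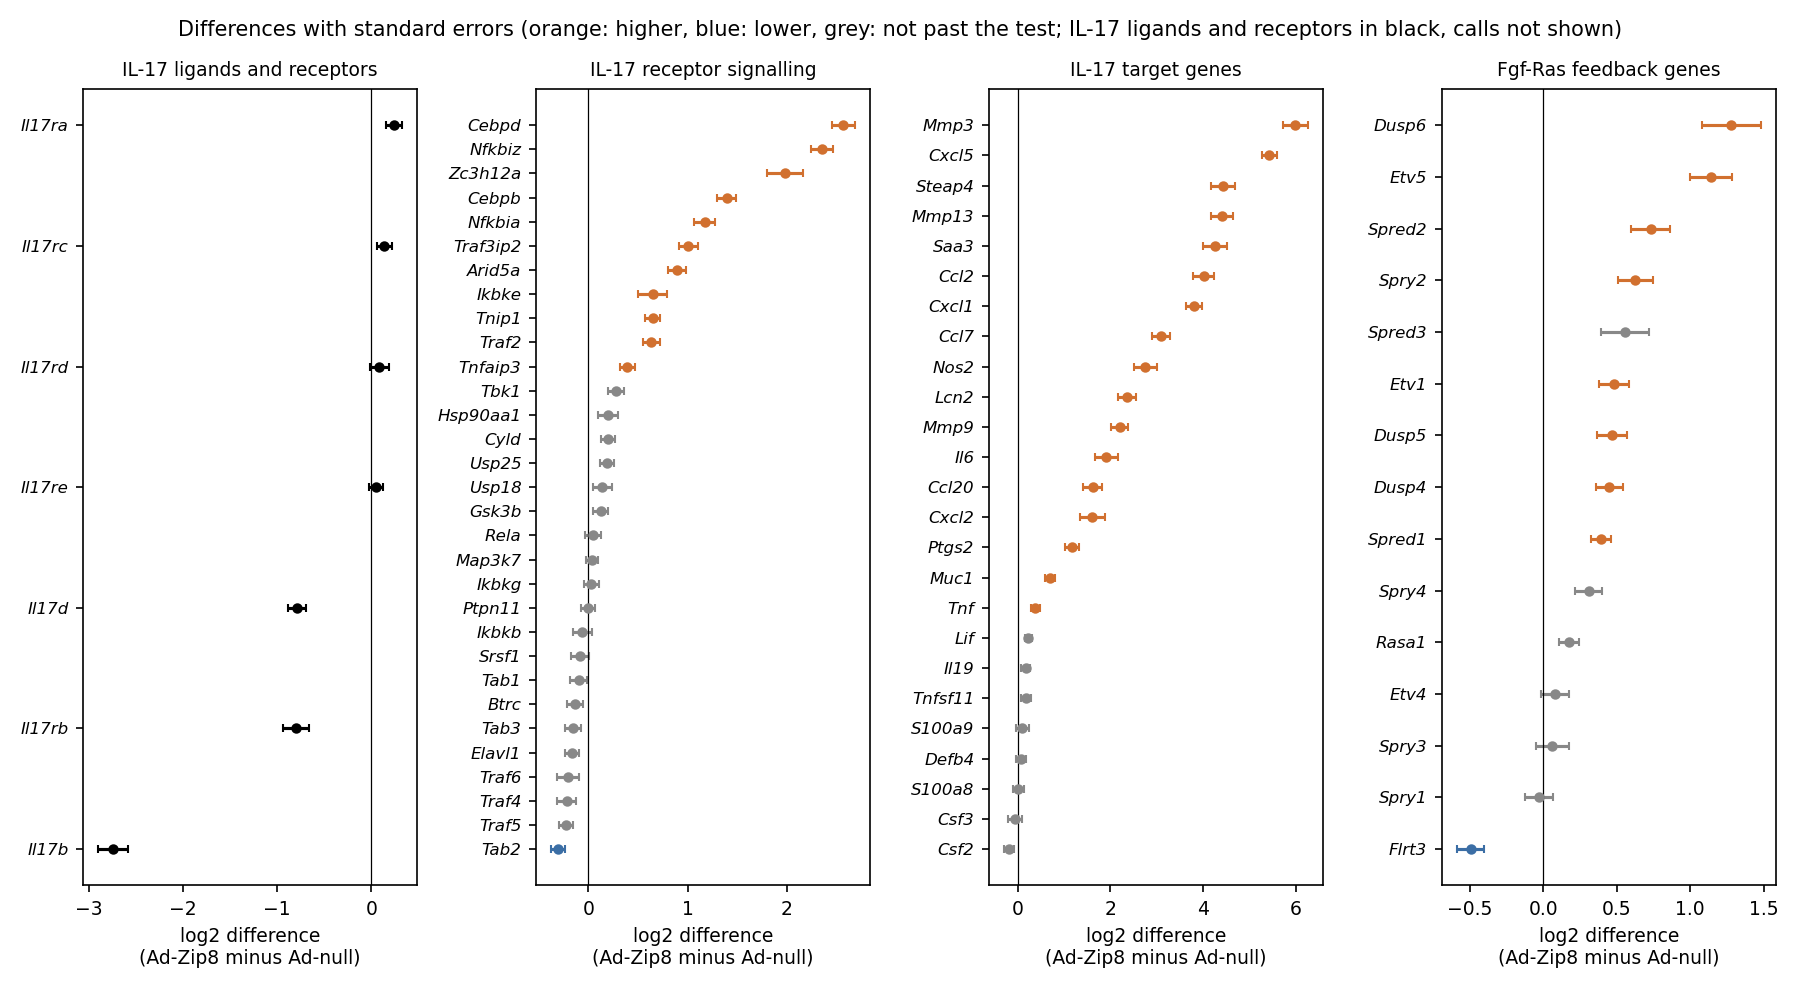
Log2 difference, Ad-Zip8 minus Ad-null (horizontal axis), with its standard error for each gene of 4 lists; the panels have different scales. Orange genes were higher and blue ones lower at an adjusted p under 0.05, and grey ones did not pass. The 7 IL-17 ligands and receptors are in black without a call, since they were chosen with this contrast known. Orange are 17 of 25 response genes and 11 of 31 signalling genes (all genes higher: 5.48%). The lists were drawn up with earlier results of these arrays known.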

How the data were processed

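The authors deposited log2 values, 1 per probe set and array, for which the submitters' processing notes name RMA; its version and genome build: not given in the sources used here. RMA brings arrays to a common distribution, so differences are relative, and they are compressed near background. Of 41345 probe sets, 23521 had 1 gene symbol, 1814 several and 16010 none; for 1082 genes with several probe sets the brightest on average was kept. Symbols were checked by Entrez ID against RefSeq (GRCm38.p6), which held 23328 of them, and 0 changed. Promoters are from RefSeq, same build.

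Groups of 4 arrays were compared with limma 3.58.1 in R 4.3.3 (lmFit, eBayes, two-sided), without covariates or a filter, with Benjamini-Hochberg adjustment over 22180 genes and a threshold of 0.05; the script was tested on simulated data. SD is between arrays, SE is the fit's, and the number of arrays limits precision. Both groups carry replicate numbers 1 to 4. Deviations from group means correlated at 0.11 to 0.37 between same-numbered arrays and at -0.27 to 0.16 between others, so a fit with the replicate block was an alternative; this pairing is inferred from the data. Other alternatives were 2 rescalings, a filter on dim genes, a variance trend, averaged probe sets and each array left out. Named were the members, other family genes and Cd93, and up to 4 list genes per direction with the smallest adjusted p. Some of the genes next to a member were named, among them all that passed. The 5 genes closest in profile to a member with a log2 difference of at least 1 were named too. Other genes, such as single markers, were named after their values were seen. Members and lists were chosen with earlier results of these data known. Some genes were not analysed here.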

Additional observations from a re-analysis of the deposited data

Results flagged for a closer look

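Of 98 groups of 4 arrays checked, over 49 named genes, 6 had 1 array far from the other three by Dixon's test, while chance gives about 1 in 20; none belonged to the 7 IL-17 ligand and receptor genes. Of these, 3 were in Ad-Zip8 replicate 1: Cxcl5 was 11.9 there, with the nearest array at 11.4, Etv5 was 8.51, with the nearest at 8.08, and Ptprc was 2.83, with the nearest at 3.31. In Ad-null replicate 4, Il17f was 4.34, with the nearest array at 4.99, and Ptprc was 3.23, with the nearest at 3.42. Cd14 was 5.12 in Ad-null replicate 3, with the nearest at 5.47.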

How the results depend on the processing

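Il17b, Il17d and Il17rb kept their direction under every alternative run, with log2 differences of -2.86 to -2.62, -0.87 to -0.74 and -0.89 to -0.71 when 1 array was left out. Il17ra ran from 0.20 to 0.28, Il17rc from 0.10 to 0.17, Il17rd from 0.02 to 0.15 and Il17re from 0.03 to 0.10. Past the threshold were 3 members as lower in each setting and 0 as higher under all but 2 alternatives. Leaving out genes below the median level, which drops Il17rd and Il17re and tests fewer genes, and the variance trend each gave 1 higher member, Il17ra. These counts of members are a description and not a test, since the members were chosen with this contrast known. Over all genes, 1216 were higher and 1136 lower; leaving out 1 array gave 924 to 1119 and 708 to 923, lowest among those lower without Ad-Zip8 replicate 1 (708) and Ad-null replicate 1 (721). With the replicate block 1278 were higher and 1059 lower; among the genes named and those in the lists it ended the calls of Ift88, Comp and the neutrophil marker Camp, brought Tbk1 and Spred3 past the threshold, and changed no other call. Signalling genes that fell numbered 0 with quantile normalization repeated and 0 to 1 with an array left out. Signalling genes that rose numbered 10 to 11, response genes 16 to 17 and feedback genes 7 to 10 with an array left out. The causes were not tested. Low signal limits what can be read of Il17re, Il17rd and Il17b with Ad-Zip8.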
